A study of Mus musculus with 4 samples.

Results

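Among the accessible chromatin regions of mouse myeloid cells, 771 lay within 1 kb of an annotated end of a protein-coding gene and were called in the CMP/GMP libraries of both genotypes but in neither monocyte library. They were drawn from 120423 merged regions, of which 8764 had this CMP/GMP-only pattern at any position. A region is the union of overlapping called intervals on the autosomes or X, and an end is either limit of the gene in the mm10 annotation. The regions were chosen by the presence or absence of a called interval in all 4 libraries, so their presence in CMP/GMP cells and absence from monocytes is a description and is given no test.

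The assay was Omni-ATAC-seq: a transposase cuts and tags DNA where chromatin is open, and regions with many tagged fragments are called accessible. The groups were Cxcr3-/- CMP/GMP cells, WT CMP/GMP cells, Cxcr3-/- monocytes and WT monocytes, with 1 peak list each. CMP are common myeloid progenitors and GMP granulocyte-monocyte progenitors, which the libraries hold together. All were C57BL/6J bone marrow-derived cells cultured in vitro, from mice lacking the chemokine receptor gene Cxcr3 or wild type for it. The labels give hepatocellular carcinoma as the disease state of every sample, and the study gave both genotypes diethylnitrosamine and tetrachloromethane to induce fibrosis-associated liver tumours; whether the donors of these cultures were treated, the animals' ages and number, and the deleted part of Cxcr3 are not stated in the sources used. The labels speak of sequencing in duplicates, but 1 list stands for each group, so no replicate error exists and no p-value is given.

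A gene's promoter is the stretch around its transcription start, and it is usually nucleosome-depleted in cells that use or are poised to use the gene. Promoters rich in CpG dinucleotides are open in most cell types, while CpG-poor promoters tend to be open in the lineage that expresses the gene. In GMP the genes for primary granule proteins, such as myeloperoxidase and neutrophil elastase, are active, with C/EBP factors, PU.1, Runx1 and Myb among their regulators.

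The CMP/GMP-only regions covered the promoters of 9 genes of a granulocyte and GMP granule list. The 250 bases before the RefSeq transcription start of those genes are shown (GRCm38.p6, the build also called mm10; 5′ to 3′ on the gene's strand), together with Galntl5, a glycosyltransferase-like gene whose promoter window was also among the 15 highest-ranking regions. Capitals mark matches, on either strand, to short patterns for C/EBP (TTGCNNAA), PU.1 (GAGGAAGT), Runx (TGTGGT) or Myb (AACNGTT), which do not overlap one another here. Mpo, Ms4a3, Plac8 and Galntl5 were taken by their rank, and the others after their values were seen.
Mpo, chr11:87793534-87793783, plus strand: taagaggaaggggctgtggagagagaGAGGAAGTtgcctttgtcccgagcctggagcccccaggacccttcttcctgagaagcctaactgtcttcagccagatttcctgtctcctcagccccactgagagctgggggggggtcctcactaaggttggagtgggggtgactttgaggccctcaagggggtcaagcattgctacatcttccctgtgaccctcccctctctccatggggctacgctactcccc
Elane, chr10:79886062-79886311, plus strand: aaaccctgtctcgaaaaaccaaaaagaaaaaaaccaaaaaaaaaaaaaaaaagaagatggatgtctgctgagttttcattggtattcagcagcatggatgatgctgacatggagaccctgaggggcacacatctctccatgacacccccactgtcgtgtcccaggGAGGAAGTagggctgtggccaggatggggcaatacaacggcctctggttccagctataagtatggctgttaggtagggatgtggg
Ms4a3, chr19:11640852-11641101, minus strand: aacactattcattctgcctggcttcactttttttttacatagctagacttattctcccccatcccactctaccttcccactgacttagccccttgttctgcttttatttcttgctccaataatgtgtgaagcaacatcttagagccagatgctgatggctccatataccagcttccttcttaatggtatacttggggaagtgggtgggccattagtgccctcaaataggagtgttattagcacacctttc
Plac8, chr5:100572206-100572455, minus strand: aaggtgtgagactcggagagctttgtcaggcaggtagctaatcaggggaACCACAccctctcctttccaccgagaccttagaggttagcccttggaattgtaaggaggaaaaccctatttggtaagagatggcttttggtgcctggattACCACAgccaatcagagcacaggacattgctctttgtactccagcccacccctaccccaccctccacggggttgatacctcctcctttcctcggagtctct
Lcn2, chr2:32387740-32387989, minus strand: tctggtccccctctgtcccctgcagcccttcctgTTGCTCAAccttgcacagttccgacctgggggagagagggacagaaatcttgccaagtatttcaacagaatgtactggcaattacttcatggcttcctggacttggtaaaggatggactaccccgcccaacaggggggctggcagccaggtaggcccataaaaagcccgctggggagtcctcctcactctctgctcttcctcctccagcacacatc
Ltf, chr9:111019042-111019291, plus strand: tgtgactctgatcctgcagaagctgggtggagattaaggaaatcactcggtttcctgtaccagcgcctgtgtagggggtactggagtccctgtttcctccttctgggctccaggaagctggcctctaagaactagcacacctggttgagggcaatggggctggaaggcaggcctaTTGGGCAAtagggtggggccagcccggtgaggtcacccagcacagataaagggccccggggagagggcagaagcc
Ngp, chr9:110419558-110419807, plus strand: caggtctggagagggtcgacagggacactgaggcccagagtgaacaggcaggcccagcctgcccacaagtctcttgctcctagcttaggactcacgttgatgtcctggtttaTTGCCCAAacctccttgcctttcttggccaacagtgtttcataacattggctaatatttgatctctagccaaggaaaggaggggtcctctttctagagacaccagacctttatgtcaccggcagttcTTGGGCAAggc
S100a9, chr3:90695722-90695971, minus strand: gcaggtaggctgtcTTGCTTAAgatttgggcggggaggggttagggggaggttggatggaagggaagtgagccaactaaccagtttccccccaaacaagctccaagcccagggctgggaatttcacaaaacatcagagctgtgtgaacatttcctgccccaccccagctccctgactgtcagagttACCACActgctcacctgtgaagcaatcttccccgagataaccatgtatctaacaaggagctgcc
Nkg7, chr7:43436888-43437137, plus strand: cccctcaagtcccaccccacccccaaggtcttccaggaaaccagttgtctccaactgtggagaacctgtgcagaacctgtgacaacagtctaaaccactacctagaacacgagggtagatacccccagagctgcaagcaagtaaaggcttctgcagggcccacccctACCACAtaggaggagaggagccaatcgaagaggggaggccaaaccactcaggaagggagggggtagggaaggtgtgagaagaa
Galntl5, chr5:25181230-25181479, plus strand: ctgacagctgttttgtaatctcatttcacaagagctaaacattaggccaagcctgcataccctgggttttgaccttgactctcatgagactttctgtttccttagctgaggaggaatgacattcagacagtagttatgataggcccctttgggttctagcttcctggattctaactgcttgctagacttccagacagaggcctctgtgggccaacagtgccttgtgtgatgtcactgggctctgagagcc

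In these 250 bases the PU.1 pattern began 85 bases before the start of Elane and 224 before that of Mpo. The C/EBP pattern occurred at 138 and 11 bases before the start of Ngp, at 216 before Lcn2, at 236 before S100a9 and at 75 before Ltf. The Runx pattern occurred at 101 and 201 bases before Plac8, at 64 before S100a9 and at 83 before Nkg7. Ms4a3 and Galntl5 held none of the 4 patterns in these 250 bases. In the full RefSeq windows of 300 bases, 250 before and 50 after the start, the C/EBP pattern was present in 5 of the 9 granule genes (Lcn2, Ltf, Ms4a3, Ngp and S100a9), against 10.3% of all 21044 windows. All 9 were CpG-poor, with 0 to 6 CpG and a median of 3 per window, against a median of 13 over all windows. A match is only a run of letters and says nothing of which factor was bound.

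The signal of each region is given as summit tags, the number of overlapping fragments at the interval's highest point, recovered as a whole number from the deposited fold enrichment and −log10 p. The Cxcr3-/- CMP/GMP, WT CMP/GMP, Cxcr3-/- monocyte and WT monocyte lists held 80171, 69521, 78244 and 98257 intervals. Their lowest background densities were 194, 135, 97.2 and 95.6 tags per 10 kb. Of 31 measured granule genes, 28, 26, 18 and 21 had any called region at an end in these 4 libraries. Of 34 macrophage genes, 25, 22, 29 and 31 had one, and of 30 monocyte genes, 28, 26, 26 and 29. Of 20 hepatocyte genes, 4, 4, 3 and 4 had one. Over all protein-coding genes the shares were 61.7%, 58.9%, 58.1% and 61.4%. The CMP/GMP libraries thus held regions at more granule and fewer macrophage genes than the monocyte libraries, a difference of counts that was not tested.

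The regions had lower signal than gene-end regions shared by all 4 libraries. Summit tags ran over 10 to 248 with a median of 25 in Cxcr3-/- CMP/GMP cells, and over 8 to 160 with a median of 16 in WT CMP/GMP cells. Gene-end regions called in all 4 libraries had medians of 74 and 42 tags in the same libraries, and CMP/GMP-only regions away from gene ends had 22 and 15. The median width was 261 bp, with a range of 125 to 2026 bp, against 217 bp for monocyte-only and 681 bp for all-library regions at gene ends. By the authors' q-value, 666 of the 771 ranked beyond the first 50% of at least 1 CMP/GMP list, and 17 stood within the first 25% of both. Had the monocyte libraries been equally accessible there, the shared-region scaling gives a median of 15.6 tags in Cxcr3-/- monocytes and 20.8 in WT monocytes, and background scaling gives 12.5 and 11.4. The lowest called summits in those libraries were 6 and 5 tags. These expected values are rescaled from the tags by which the regions were called, so they describe the regions' depth and support nothing about absence from monocytes.

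The rule's edges held regions of ordinary strength. The farthest regions still inside lay 997, 998 and 999 bp from an end of Golga7b (21 tags in Cxcr3-/- and 9 in WT cells), Ano6 (39 and 27) and Gad2 (22 and 12). The nearest outside lay 1001, 1002 and 1003 bp from Nrbp2 (21 and 10), Prr15l (15 and 9) and Podnl1 (22 and 14). The median distance to the nearest monocyte interval was 1929 bp. Of the 771 regions, 212 (27.5%) lay within 500 bp of a monocyte interval, 35 within 100 bp and 5 within 10 bp, the nearest being those at Magohb (4 bp), Zfr (5 bp) and Mtcl1 (7 bp). For such regions absence from monocytes concerns the called limits of an interval, not a wider stretch of closed chromatin.

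Fewer of the CMP/GMP-only regions lay at gene ends than of the shared ones. The share was 8.80% of CMP/GMP-only regions (95% Clopper-Pearson interval 8.21 to 9.41), 6.20% of 17362 monocyte-only regions (5.84 to 6.57), 26.7% of 44591 regions of all 4 libraries (26.3 to 27.1) and 16.1% of all regions. Intervals here cover counting error only. Regions touched an end of 827 genes, which is 3.82% of 21627 protein-coding genes, and 54 regions touched ends of more than 1 gene. Each of the 20 chromosomes held 20 to 61 regions, 25 of them on chromosome 18.

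Most lay at the transcription start, but seldom over it. Strand was known for 602 regions; 426 of these (70.8%, 67.0 to 74.4) were at a start, 201 at an end of transcription and 25 at both. The start share was 63.3% (60.1 to 66.5) for monocyte-only and 91.1% for all-library regions. Of the start regions, 125 (29.3%, 25.1 to 33.9) covered the start base itself, against 113 (20.4%, 17.1 to 24.0) of monocyte-only and 6958 (78.4%) of all-library regions. The remainder lay to its sides: of 441 pairs of a region and a gene start, 136 had the region wholly upstream and 179 wholly downstream. An all-library region shared the same start window in 164 of the 441 pairs (37.2%), against 325 of 584 (55.7%) for monocyte-only regions. Where the CMP/GMP-only region covered the start, this was so in 14 of 126 pairs, against 22 of 113 for monocyte-only regions. Most of those promoters thus had no region of all 4 libraries within 1 kb. Merging keeps an all-library region from overlapping the region over the start, so the rule itself limits these counts.

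**Figure D1:**
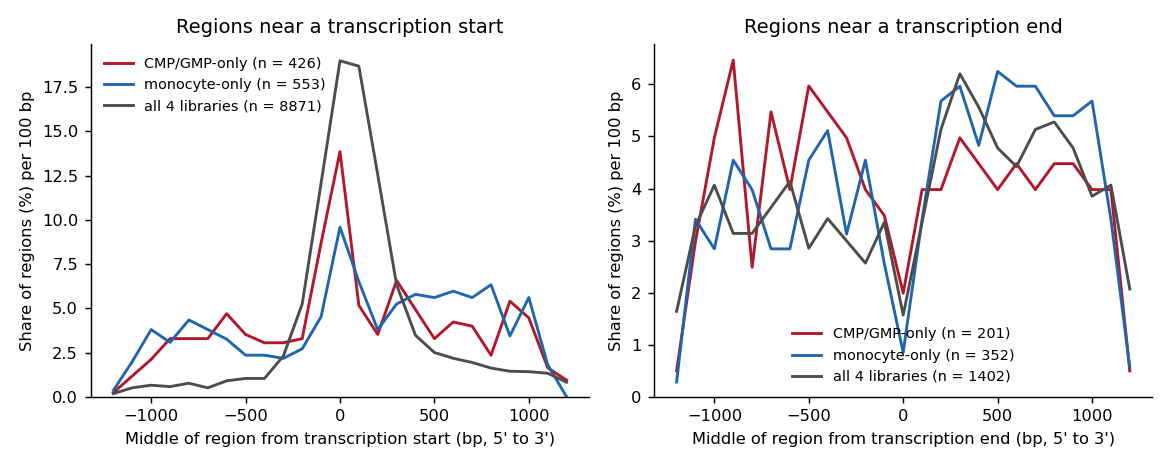
Share of regions by the distance of their middle from the annotated transcription start and end (bp, 100 bp bins, 5′ to 3′) for CMP/GMP-only, monocyte-only and all-library regions. At starts 13.8% of CMP/GMP-only regions fall in the bin centred on the start, against 9.58% of monocyte-only and 19.0% of all-library regions; at transcription ends no pattern has a peak at the end itself, and all-library regions whose middle lies beyond the plotted range are counted in the total but not drawn.

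The granule genes were the list in which CMP/GMP-only regions were most frequent. A CMP/GMP-only region was found at 10 of 31 measured genes (32.3%), against the 3.82% of all protein-coding genes, and monocyte-only regions were found at 4 of 31, against 5.13% of all genes. With strand known, the start itself was covered in 9 of 27 granule genes, against 0.729% of all genes. No granule gene's start was covered by a monocyte-only region, against 0.654% of all genes. The list was chosen with earlier results of these data known, so its count is a description of these libraries.

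Among primary granule genes, Mpo, which encodes myeloperoxidase, had 82 summit tags in Cxcr3-/- and 48 in WT CMP/GMP cells, in a region of 733 bp over the start (chr11:87793349-87794081). At equal accessibility 51.2 and 62.5 tags would have been seen in Cxcr3-/- and WT monocytes under shared-region scaling, and 41.1 and 34.1 under background scaling. Elane, neutrophil elastase, had 56 and 25 tags in Cxcr3-/- and WT CMP/GMP cells. Calr, the endoplasmic reticulum chaperone calreticulin that assists the folding of myeloperoxidase, had 61 and 35 tags in a region 314 bp beyond its transcription end, with regions of all 4 libraries at both ends of the gene. Calr was thus the exception in which the CMP/GMP-only region was not at the start.

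Ms4a3, a tetraspanning membrane protein gene that marks GMP, had 72 tags in Cxcr3-/- and 40 in WT CMP/GMP cells over its start (chr19:11640706-11641186). Plac8, a gene expressed in myeloid progenitors, had 82 and 57 tags over its start (chr5:100571937-100572575). The nearest monocyte intervals lay 4796 bp from the Ms4a3 region and 1549 bp from the Plac8 region. Both promoters were among the 15 highest-ranking of the 771 regions, as was that of Mpo.

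The other 5 genes of the granule list with a CMP/GMP-only region had lower signal. Among them were Lcn2, Ngp and Ltf, genes of later neutrophil granules. S100a9, a subunit of calprotectin, had 32 tags in Cxcr3-/- and 19 in WT CMP/GMP cells. Lcn2, the siderophore-binding lipocalin of neutrophils, had 24 and 12 tags. Ngp, neutrophilic granule protein, had 23 and 9, and Ltf, the iron-binding lactoferrin, had 18 and 12. Nkg7, which encodes a granule membrane protein of cytotoxic lymphocytes, had 39 and 23 tags in a region of 805 bp. These 5 promoters were all covered at the start, and with a mean of 30 tags required over the 2 libraries Mpo, Plac8, Ms4a3, Calr, Elane and Nkg7 remained, a count of 6 of 31.

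**Figure D2:**
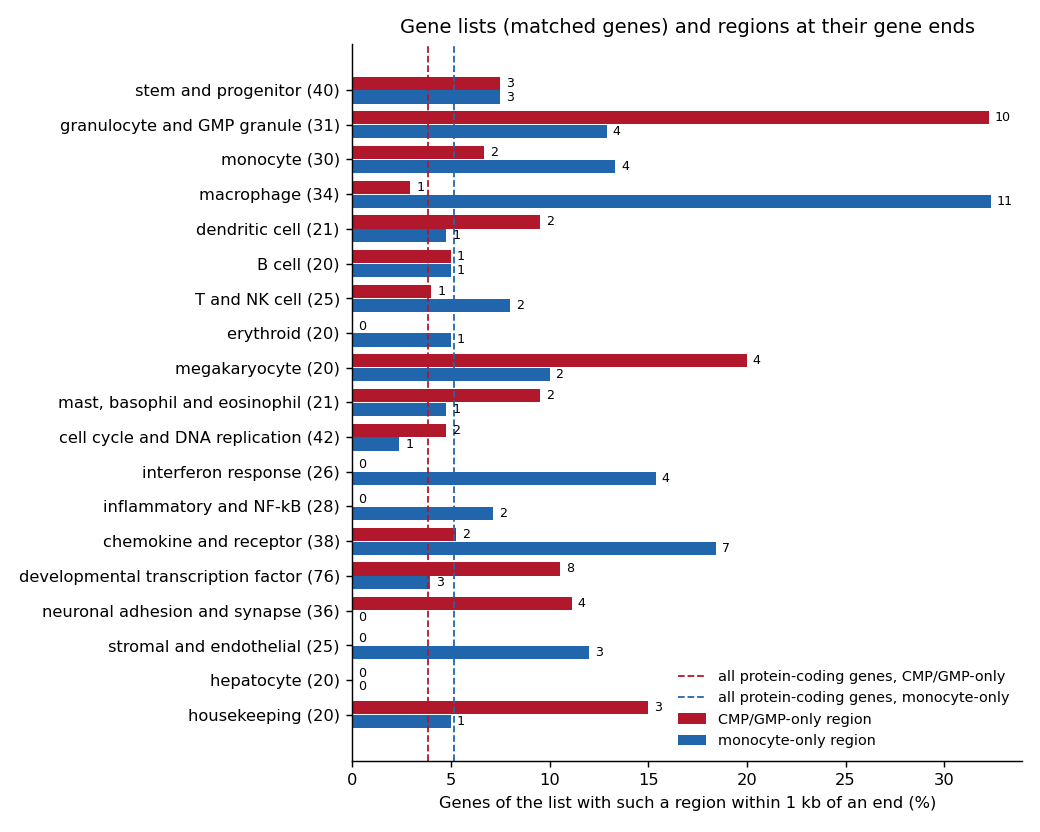
Percent of the measured genes of each of 19 lists with a CMP/GMP-only or monocyte-only region within 1 kb of an end, with the number of such genes beside each bar; the dashed lines show the 3.82% and 5.13% found over all protein-coding genes. The granule list stands at 32.3% for CMP/GMP-only regions, and the macrophage list at 32.4% for monocyte-only regions.

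Macrophage genes (2.94%) and monocyte genes (6.67%) had CMP/GMP-only regions at shares not far from the 3.82% of all genes. Of 34 macrophage genes, Gpnmb, a transmembrane glycoprotein of macrophages, was the one with a CMP/GMP-only region, of 18 tags in Cxcr3-/- and 11 in WT CMP/GMP cells at 731 bp from its transcription end, whereas 11 of 34 (32.4%) had a monocyte-only region, against 5.13% of all genes. Of 30 monocyte genes, Csf1r, the receptor for macrophage colony-stimulating factor, had a strong region of 70 and 46 tags lying 61 bp outside one end (chr18:61131200-61131812), which also touched Hmgxb3. Cd14, the lipopolysaccharide co-receptor, had 19 and 12 tags at 588 bp from an end. Strand was not given for either gene. None of 26 interferon response, 28 inflammatory, 20 erythroid, 25 stromal and endothelial or 20 hepatocyte genes had a CMP/GMP-only region, while monocyte-only regions touched 4, 2, 1, 3 and 0 genes of these lists. Lists of this length hold about 1 such gene at the share of all genes, so these counts of 0 stand near the background.

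Among markers of other blood lineages, megakaryocyte genes had the highest share, 20% against the 3.82% of all genes, from a count of 4. A monocyte-only region was at 2 of 20 (10%), against 5.13% of all genes. None of the 4 genes with a CMP/GMP-only region had one of 30 or more mean tags. The 4 of 20 genes were Itgb3, the β3 integrin chain, with 37 tags in Cxcr3-/- and 20 in WT cells; Itga2b, its partner chain in the platelet fibrinogen receptor, with 23 and 20; Gp9, a platelet glycoprotein, with 16 and 10; and Rab27b, a secretory granule GTPase, with 2 regions of 16 and 15 and of 16 and 13 tags. Among 21 mast cell, basophil and eosinophil genes, 2 (9.52%) had a CMP/GMP-only region, against 3.82% of all genes. They were Mcpt8, a basophil protease (27 and 20 tags), and Il5ra, the interleukin-5 receptor chain (24 and 18). Both were covered at the start, which is 2 of 19 genes with strand known (10.5%), against 0.729% of all genes. The B cell gene Vpreb3 had 15 and 11 tags and the cytotoxic cell gene Prf1, perforin, 16 and 9. These lineage markers ranged below the primary granule genes in summit tags, and the counts are of genes with a called interval, not of cells of those lineages.

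Of 40 stem and progenitor genes, 3 (7.50%) had a CMP/GMP-only region and 3 (7.50%) a monocyte-only one, against 3.82% and 5.13% of all genes. A region of all 4 libraries was at 27 (67.5%), against 53.9% of all genes. Cdk6, a cyclin-dependent kinase of progenitors, had 36 tags in Cxcr3-/- and 20 in WT cells near its start. Robo4, a guidance receptor found on stem and endothelial cells, had 34 and 19 over its start, and Tal1, a transcription factor of blood formation, 15 and 16 at its transcription end. Of 42 cell cycle genes, 2 (4.76%) had one, Cdk6 and Ccnd2, cyclin D2 (63 and 33 tags). Of 21 dendritic cell genes, 2 (9.52%) had one. They were Zbtb46, a transcription factor of conventional dendritic cells (62 and 31), and Ccr7, a lymph node homing receptor (16 and 9). Ccr7 and Dpp4 were the 2 of 38 chemokine genes (5.26%) with a CMP/GMP-only region. Dpp4, the peptidase that trims CXCR3 ligands, had 32 and 18 tags at 768 bp from its start. A monocyte-only region was at 7 of the 38 (18.4%), against 5.13% of all genes. Among housekeeping genes, Pgk1, a glycolytic kinase gene, had 43 and 18 tags and Vcp, an ATPase of protein degradation, had 22 and 14.

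A different group of genes, known for roles outside blood, had weak regions. Of 76 developmental transcription factor genes, 8 (10.5%) had a CMP/GMP-only region, against 3.82% of all genes, and 3 (3.95%) a monocyte-only one, against 5.13%. With each genotype's libraries alone, the monocyte-only share was also above that of all genes, as given below. Sox17, an endoderm and endothelial factor, had 29 tags in Cxcr3-/- and 17 in WT cells, and Hoxb4, a homeobox factor also active in blood progenitors, had 23 and 11. Irx3, Alx4, Msx2, Hoxb1 and Pax1 had 13 to 21 tags in Cxcr3-/- and 11 to 16 in WT cells. Of 36 neuronal genes, 4 (11.1%) had a region and none a monocyte-only one. Unc5c, a netrin receptor, had 29 and 16 tags, and Dlgap1, a synaptic scaffold protein, 27 and 20. Kcnq3, a potassium channel, had 20 and 13, and Cdh2, N-cadherin, 13 and 10. No developmental gene reached a mean of 30 tags. The monocyte tags expected at equal accessibility at the 8 developmental regions were 8.12 to 18.1 in Cxcr3-/- and 14.3 to 22.1 in WT monocytes by shared-region scaling, and 6.51 to 14.5 and 7.81 to 12.1 by background scaling. The lowest of these is close to the lowest called summit of 6 tags in Cxcr3-/- monocytes, so a call missing there says little about the locus.

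Several wide or strong regions at transcription ends lay at immediate-early, stress and histone genes, which were picked after their values were seen and form no tested group. The region with the best rank of all 771 covered the transcription end of Jun, a subunit of the AP-1 transcription factor (chr4:95048586-95050259, 1674 bp). It had 248 summit tags in Cxcr3-/- and 160 in WT CMP/GMP cells, and 1224 of its bases lay inside the gene. The Jun start region, called in all 4 libraries, had 252 and 134 tags in Cxcr3-/- and WT CMP/GMP cells and 146 and 150 in Cxcr3-/- and WT monocytes. The end region was thus slightly below the start region in Cxcr3-/- CMP/GMP cells and above it in WT CMP/GMP cells, with no interval called at the end in monocytes; the nearest monocyte interval lay 1379 bp away.

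Fos, which encodes the AP-1 partner of Jun, had 2 regions, one over its transcription end with 73 tags in Cxcr3-/- and 41 in WT cells and one 519 bp beyond it with 73 and 42. Its start region had 72 and 50 tags in Cxcr3-/- and WT CMP/GMP cells and 44 and 72 in Cxcr3-/- and WT monocytes. Fosb, another AP-1 subunit gene, had 87 and 64 tags in a region of 1107 bp over its end, beside a region of 98 and 63 tags that was also called in WT monocytes with 22. Rhob, a small GTPase induced by growth factors and stress, had 71 and 52 tags over its end. These 4 genes are short, 2349 to 7423 bp from end to end, and each had a region of all 4 libraries at its start.

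The H3f3b region, of 2026 bp, was the widest (chr11:116019933-116021958) and began 3 bp beyond the end of this gene for the replacement histone H3.3, with 127 tags in Cxcr3-/- and 84 in WT cells. Hnrnpa3, an RNA-binding protein gene, had a region of 1282 bp with 31 and 16 tags, of which 7 bases lay inside the gene. Hspa1b, an inducible Hsp70 chaperone gene, had 34 and 15 tags over its end. Without a known strand, regions of 1604 bp at Cd69, an early activation antigen (39 and 28), and of 905 bp at Hsp90aa1, the inducible Hsp90 chaperone (70 and 22), lay at one gene limit while a region of all 4 libraries lay at the other. Further transcription ends covered included those of the histone gene H3c11 (42 and 35), Hnrnpa2b1 (21 and 15), Lpo (59 and 47) and Il4i1 (34 and 20). Of the 10 widest regions, 6 had an all-library region at the gene's other end.

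**Figure D3:**
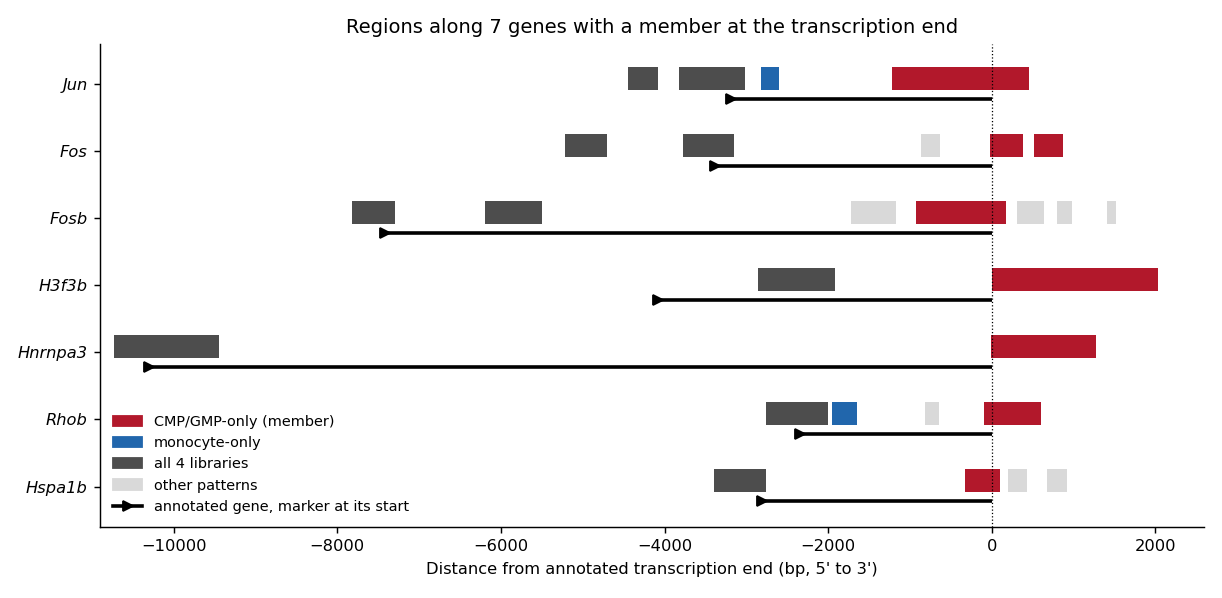
Called regions along 7 genes with a CMP/GMP-only region at the transcription end, drawn to scale by distance from that end (bp, 5′ to 3′) and coloured by pattern. Each gene except H3f3b has an all-library region within 1 kb of its annotated start, and each CMP/GMP-only region lies over the end or within 1 kb of it, that of Jun mostly inside the gene.

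Regions of 700 bp or more with a known strand lay more often at a transcription end only than the 771 as a whole, in small numbers. Of the 14 regions of 700 bp or more, 9 had a known strand and 6 of these were at a transcription end only, against 29.2% over all regions with strand. Of the 6 of 1000 bp or more, 4 had a strand and all 4 were at a transcription end only. At lower width limits the share stood near that of all regions. It was 24 of 93 (25.8%) at 400 bp or more and 12 of 39 (30.8%) at 500 bp or more. Among the 176 regions at a transcription end only, the same gene's start held a region of all 4 libraries in 109 (61.9%, 54.3 to 69.1), against 220 of 320 (68.8%) for monocyte-only end regions and 51.9% of all genes with strand. A CMP/GMP-only end beside a start open in all 4 libraries was thus found well beyond the wide regions, and its share overlapped that of monocyte-only ends (63.4 to 73.8) in the counting intervals.

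Other high-ranking regions lay at genes of mixed function. Tmem268 had 96 tags in Cxcr3-/- and 52 in WT cells, 388 bp upstream of its start, and St3gal1, a sialyltransferase gene, had 76 and 48 inside one end of the gene. Cxadr, the coxsackievirus and adenovirus receptor, had 85 and 42, Asic4, an acid-sensing channel family gene, 82 and 41, and Galntl5 55 and 44. Lamb3, a laminin chain (52 and 39), Nxph1, a neurexin ligand (55 and 37), Thsd1 (51 and 31), and the shared end of Dvl1, a Wnt signalling protein, and Tas1r3, a taste receptor (61 and 39), completed the 15. Nxph1 lay 116974 bp from the nearest monocyte interval, the greatest distance among the 15.

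More than 1 region was found at 20 genes, and 3 of them had 3. Lpo, the lactoperoxidase gene next to Mpo, had regions of 59 and 47, 34 and 23, and 31 and 26 tags in Cxcr3-/- and WT cells at its transcription end, which faces the end of Mpo. Smim6 had 22 and 15, 25 and 12, and 15 and 10 near its start. Tnfrsf11b, osteoprotegerin, had 13 and 10, 12 and 12, and 11 and 12. Among the 17 genes with 2, Fos had 73 and 41 and 73 and 42 tags, as given above, and Pan3, a deadenylase subunit gene, had 83 and 47 and 33 and 24; the others were F2rl3, Fads3, Fgf23, Frmd4b, Grip1, N4bp3, Pcdhgb4, Phyhipl, Prdm2, Rab27b, Rnase10, Rsbn1, Sat1, Shroom1 and Steap2.

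Between the genotypes, few of the regions differed by more than 2-fold. After scaling on the 44591 regions of all 4 libraries, 0 of the 771 were past 2-fold higher in Cxcr3-/- than in WT CMP/GMP cells, against 0.152% of 59993 regions called in both libraries, and 11 (1.43%) were past 2-fold lower, against 1.05%. All 11 had fewer than 30 tags as the mean of the CMP/GMP libraries. The 771 were called in both genotypes by the rule, which limits how far apart the genotypes can be. The median log2 ratio of Cxcr3-/- over WT was −0.10 (SD 0.384 over regions), against −0.04 over all such regions and −0.10 over those of like signal. Scaling by background density turned the median to 0.09, with 5 past 2-fold higher and 3 lower. The sign thus varied with the scaling, and also with signal, the median being 0.07 at 30 or more mean tags under shared-region scaling. With 1 library per genotype a genotype effect and a library effect cannot be told apart.

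With at least 30 mean tags, 165 regions remained, with a median of 0.07, none past 2-fold in either direction, against 0.122% higher and 0.153% lower over all such regions. The highest ratio was at Rpl4, a ribosomal protein gene, and Snapc5 (49 tags in Cxcr3-/- and 15 in WT cells, log2 ratio 0.99, counting interval 0.14 to 1.93). It was followed by Hsp90aa1 (0.96, 0.25 to 1.72), Fcer1g, the common Fc receptor γ chain (59 and 19 tags, 0.92, 0.15 to 1.75), Clstn1 and Pik3cd (73 and 25, 0.83, 0.16 to 1.55) and Msh5 (56 and 22, 0.63, −0.10 to 1.42). The lowest were at H2bc9, a histone H2B gene (33 and 36, −0.84, −1.57 to −0.12), Hnrnph2 and Gla (31 and 33, −0.80, −1.56 to −0.05), Aig1 (35 and 37, −0.79, −1.50 to −0.09), Baz2a (45 and 40, −0.54, −1.19 to 0.11) and Metap1 (39 and 34, −0.52, −1.22 to 0.19). These intervals cover the counting of tags in 2 libraries and were picked as extremes of 165.

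Under shared-region scaling, none of the granule regions was past 2-fold between the genotypes. Their median log2 ratio was 0.07, with 8 of 10 above 0. Over all the regions 293 of 771 (38.0%) were above 0, and 96 of 165 (58.2%) with at least 30 mean tags, a level that 6 of the 10 granule regions reach. Ngp had the highest value, 0.64 (−0.53 to 1.94), followed by Elane at 0.45 (−0.25 to 1.19), while Mpo had 0.06 (−0.47 to 0.60), Ms4a3 0.13 (−0.44 to 0.73) and Plac8 −0.19 (−0.69 to 0.32). All of these intervals include 0, but those of Ngp and Elane reach past 2-fold. Those of Lcn2 (−0.77 to 1.42) and Ltf (−1.26 to 1.06) do so too, so equality between the genotypes is not shown. Jun, at the transcription end, had −0.08 (−0.37 to 0.21), one of the narrowest intervals since its counts were the highest.

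**Figure D4:**
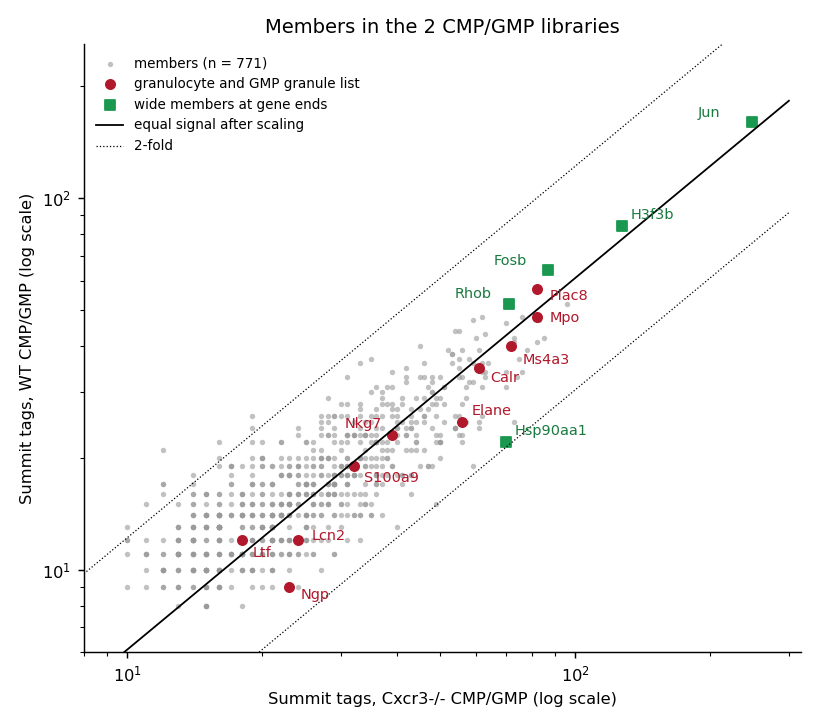
Summit tags of the 771 regions in the Cxcr3-/- CMP/GMP library (x axis, log scale) and the WT CMP/GMP library (y axis, log scale), with the granule genes and the wide gene-end regions named. The solid line is equal signal after scaling and the dotted lines are 2-fold; Jun lies at 248 and 160 tags, and the granule genes lie between the 2-fold lines.

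The promoter windows that shared bases with CMP/GMP-only regions were of intermediate CpG content. There were 227 such windows at 216 genes, including those outside the 1 kb definition because their RefSeq start lies inside the annotated gene. The median CpG number was 12, against 8 in 221 monocyte-only windows, 22 in 10399 all-library windows and 13 in all 21044. Median GC content was 58.7%, 54.3%, 62.0% and 56.7% in the same order. The granule promoters, at 0 to 6 CpG, belonged to the CpG-poor end of this range. Of the 227 windows, 59.9% had 10 or more CpG, close to the 57.3% of all windows. The share was 45.2% for monocyte-only and 88.3% for all-library windows.

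A set of 14 short patterns was searched on both strands of these windows, with a pattern counted once per window. They were C/EBP, PU.1, Runx and Myb as given, Ets (GGAAGT, which lies within the PU.1 pattern), Gata (GATAA), AP-1 (TGANTCA), the cyclic AMP response element (TGACGTCA), the TATA box (TATAAA), the CCAAT box (CCAAT, drawn as NF-Y box), the GC box (GGGCGG), Irf and E-boxes of E2A type (CAGCTG) and Myc type (CACGTG). They were chosen with these data in view. The largest gap between CMP/GMP-only and monocyte-only windows concerned AP-1, a pattern bound by Jun and Fos proteins. It was present in 6 of 227 CMP/GMP-only windows (2.64%, 0.976 to 5.66), against 42 of 221 monocyte-only windows (19.0%, 14.1 to 24.8), 4.23% of all-library windows and 7.04% of all windows. The gap was narrower but in the same direction with WT libraries alone, at 3.48% of 316 CMP/GMP-only (1.75 to 6.14) against 11.0% of 826 monocyte-only windows (8.96 to 13.4). With Cxcr3-/- libraries alone it was 5.06% of 849 against 16.5% of 322.

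The TATA box was likewise less frequent in CMP/GMP-only than in monocyte-only windows. It was present in 6.61% of CMP/GMP-only windows (3.75 to 10.7), against 19.5% of monocyte-only windows (14.5 to 25.3), 5.87% of all-library windows and 12.7% of all windows. With WT libraries alone the TATA shares were 7.28% (4.67 to 10.7) and 11.0% (8.96 to 13.4), whose intervals overlap. The Ets pattern was found in 21.1% of CMP/GMP-only and 34.8% of monocyte-only windows, against 25.0% of all. Myb was found in 4.41% (2.13 to 7.95) and 0.905% (0.110 to 3.23), against 4.05% of all windows. C/EBP (9.25% and 9.05%), PU.1 (4.41% and 5.88%) and Runx (16.3% and 16.3%) differed by less than their counting intervals between the patterns. The C/EBP pattern in 5 of 9 granule windows therefore did not extend to the 227 windows as a whole.

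**Figure D5:**
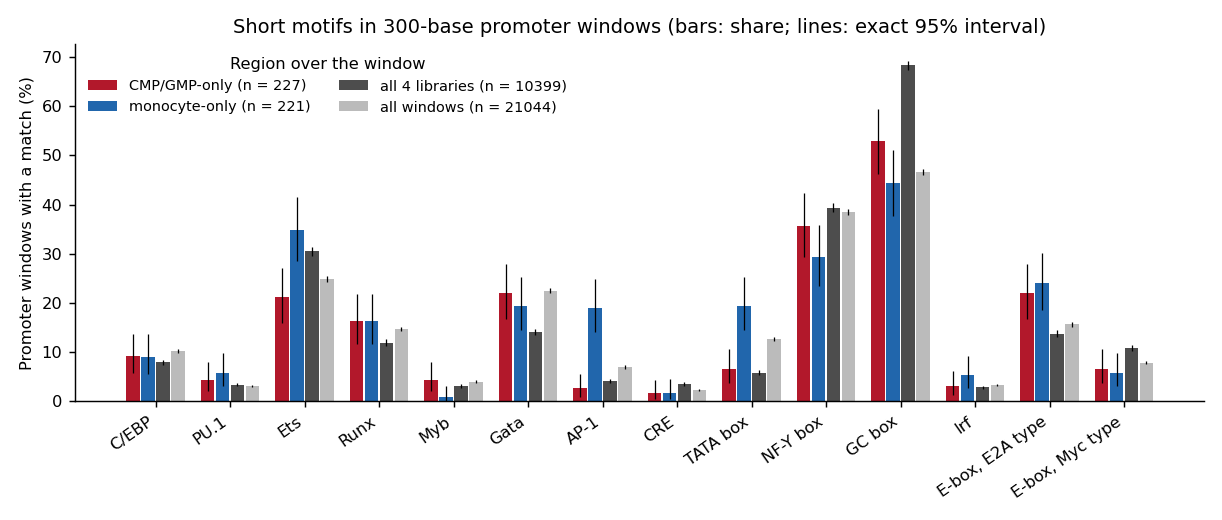
Percent of RefSeq promoter windows holding each of 14 patterns, with exact 95% intervals, for windows that share bases with CMP/GMP-only, monocyte-only or all-library regions and for all windows. AP-1 stands at 2.64% against 19.0% and the TATA box at 6.61% against 19.5% in CMP/GMP-only and monocyte-only windows.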

How the data were processed

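Omni-ATAC-seq peak lists of 4 libraries were used, 1 per genotype and cell type, paired-end on a NextSeq 500 per the labels. Per the submitters' processing notes the reads were handled with Trim Galore, Bowtie2 and SAMtools on mm10; the peak caller, the duplicates' pooling and total read depth are not given in the sources used here. Each deposited list gives an integer score, a fold enrichment (ratio over local background), −log10 p and −log10 q values and the summit's position in the interval, as the authors made them. Tags were recovered where (tags + 1)/(background + 1) and the Poisson −log10 p gave a whole number within 0.001, which failed for 2, 0, 0 and 1 intervals of the Cxcr3-/- CMP/GMP, WT CMP/GMP, Cxcr3-/- monocyte and WT monocyte lists.

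Intervals sharing a base were merged, and gene limits came from the RefSeq table (GRCm38.p6); strand came from its promoter table for 17273 of 21627 genes. The table gives no exons, so exonic and intronic positions were not assigned. Summit tags were scaled by the median ratio to the geometric mean over regions of all 4 libraries (1.35, 0.826, 0.846 and 1.08 in the order above). Shares have exact Clopper-Pearson intervals, and ratios exact conditional binomial ones. Merging, recovery and gene ends were tested on simulated data. Python 3.11.15, numpy 2.4.6, pandas 2.3.3 and scipy 1.17.1 were used. Of 574 list entries, 1 matched no gene. Regions were named if among the 15 best by the weaker rank by −log10 q, at a listed gene, among the 5 highest or 5 lowest ratios at 30 or more mean tags, at a gene with several regions, or among the 10 widest; any further gene was picked with its values in view. The regions and lists were chosen with earlier results of these data known. Some genes that met the naming rule are not reported here.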

Additional observations from a re-analysis of the deposited data

How the results depend on the processing

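Of 57 alternatives, 35 stayed within the limits set. Windows of 500 bp and 2 kb gave 505 and 1172 regions, or 5.76% and 13.4% of CMP/GMP-only regions. Lists cut to equal length gave 1142 regions, 9.75%, a median log2 ratio of −0.043 and 6 regions past 2-fold lower. Without regions that had a monocyte interval within 500 bp, the gene-end share was 7.19% and the start share 64.4%. Background scaling turned the median from negative to 0.089, with 5 past 2-fold higher and 3 lower. The regions past 2-fold lower numbered 7 at −log10 q of at least 3, 2 from the deposited fold enrichments and 0 at 30 or more mean tags, where the median was 0.068. Alternatives on gene lists and patterns were chosen after seeing the data. They gave 6 granule genes at 30 or more mean tags, and 19, 14 and 0 developmental genes with the Cxcr3-/- libraries alone, the WT libraries alone and at 30 or more mean tags; over all genes the shares under these settings were 13.7%, 5.83% and 0.837%. Monocyte-only regions were at 10 developmental genes (13.2%) with the Cxcr3-/- libraries alone, against 7.59% of all genes. With the WT libraries alone they were at 17 (22.4%), against 16.5% of all genes. With the WT libraries alone AP-1 and the TATA box were each present in 11.0% of monocyte-only windows. The causes of these shifts were not tested. No paired analysis was possible because the labels give no replicate numbers and no result comes from a test; each genotype's libraries alone are among the alternatives. Tag numbers limit most regions: their median of 16 in WT CMP/GMP cells leaves wide counting intervals, and a region missing from a monocyte list may lie below its calling threshold.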

Other observations

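Outside the lists, several genes of myeloid receptors and enzymes had a CMP/GMP-only region over their promoter window; they were picked after their values were seen. Cbfa2t3, a transcriptional corepressor of blood progenitors, had 55 summit tags in Cxcr3-/- and 26 in WT CMP/GMP cells, and Ltb4r1, the leukotriene B4 receptor, had 42 and 33. Cyp4f18, an enzyme that inactivates leukotriene B4, had 35 and 20, and Abca13, a lipid transporter, 35 and 15. Nlrp12, a regulatory NLR protein gene, had 30 and 13, Clec4d, a C-type lectin receptor, 28 and 25, and Mgam, maltase-glucoamylase, 25 and 14. Their windows held 0 to 10 CpG, a range close to that of the granule promoters.

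Some neural genes had a region over a CpG-rich window, and these were likewise picked after the fact. Slc6a3, the dopamine transporter, had 31 tags in Cxcr3-/- and 23 in WT CMP/GMP cells with 20 CpG, and Chrna7, a nicotinic receptor subunit, had 30 and 28 with 35 CpG. Reln, the matrix protein reelin, had 16 and 14 with 47 CpG, and Drd5, a dopamine receptor, 13 and 10 with 38. Other neural genes had fewer CpG in their windows, among them Grm6 and Vip with 4 each and Slc17a6 with 8.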
